A study of Mus musculus with 6 samples.

Results

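The genes described here are 43 named genes of the lysosome and of autophagy, taken as a list of gene names. No measured value enters the list's rule, but the list was drawn up with earlier results of these data known. They were found on the array through the RefSeq transcript accession of each probe. All 43 genes had at least 1 probe, and all 43 were among the 25422 genes tested. A probe that RefSeq did not name was counted there as a gene under its own label. Shares of all genes tested therefore include such unnamed sequences, whereas the 43 are all named genes. J1 mouse embryonic stem cells are a line of strain 129S4/SvJae derived from the inner cell mass. They were cultured without feeder cells on gelatin, in a serum replacement medium with LIF at 1000 U per ml, the cytokine that sustains self-renewal. The 3 samples of one group received 1 µM SC1 for 6 h, and the 3 samples of the other received DMSO, the solvent, for 6 h. SC1 is the compound called pluripotin, described as a small-molecule inhibitor of ERK1 and RasGAP. LIF was present in both groups. The treatment text of the labels is the same for all samples, so the groups were taken from the sample titles. No label says that the 3 samples of a group came from separate cultures, so the p-values reflect only how far these samples differ, and that spread may be technical. A single line, dose and time were measured.

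Lysosomes are acidic compartments in which hydrolases break down proteins, glycans and lipids delivered by endocytosis and by autophagy. The proton pump V-ATPase acidifies them, membrane proteins such as LAMP1 and LAMP2 line them, and NPC1 and NPC2 pass cholesterol out. In autophagy, the kinase ULK1 starts the formation of a membrane that is coated with LC3 proteins, encloses cargo bound by receptors such as p62, and fuses with the lysosome. Transcription of many of these genes is driven by TFEB, TFE3 and MITF, related basic helix-loop-helix factors that bind E-boxes with the core CACGTG, known in this setting as the CLEAR motif. mTORC1 at the lysosomal surface holds these factors in the cytoplasm, and folliculin takes part in that control. In mouse embryonic stem cells, TFE3 is known for supporting self-renewal, and folliculin for keeping it out of the nucleus as cells leave the naive state.

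Promoter windows from RefSeq (GRCm38.p6; 250 bases before to 50 bases after the annotated start) were given for 39 of the 43 genes. The motifs were searched on both strands, and since CACGTG reads the same on both, each match was counted once. TCACGTGA contains CACGTG and is therefore counted under both. CACGTG was present in the window of 13 of the 39 genes (33.3%), compared with 8.09% of the 27025 genes with a window. TCACGTGA was present in 6 of the 39 genes (15.4%) against 1.12% of all genes, and the related TCATGTG in 6 of 39 (15.4%) against 4.31%. These matches describe letters in the window and do not show that a factor was bound there. Stretches around the E-boxes are shown for the 5 such genes whose mRNA was higher with SC1 (Ctsa, Ctsd, Ctsf, Gaa, Glb1) and for 7 of the 8 whose mRNA did not pass the test, so that both kinds can be compared. Atp6v0d1 is left out because its E-box spans the annotated start. They are written 5′ to 3′ on the strand of the gene, with each CACGTG in capitals.
Ctsa (chr2:164833743-164833772, plus strand): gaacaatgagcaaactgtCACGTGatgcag
Ctsd (chr7:142387902-142387943, minus strand): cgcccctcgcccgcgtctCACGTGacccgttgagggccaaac
Ctsf (chr19:4855068-4855109, plus strand): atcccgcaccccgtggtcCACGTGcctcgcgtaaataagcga
Gaa (chr11:119267805-119267846, plus strand): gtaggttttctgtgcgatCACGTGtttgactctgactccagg
Glb1 (chr9:114401012-114401053, plus strand): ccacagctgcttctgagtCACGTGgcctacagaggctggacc
Gla (chrX:134601176-134601250, minus strand): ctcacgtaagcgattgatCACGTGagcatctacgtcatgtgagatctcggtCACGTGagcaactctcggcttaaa
Lamp1 (chr8:13159082-13159160, plus strand): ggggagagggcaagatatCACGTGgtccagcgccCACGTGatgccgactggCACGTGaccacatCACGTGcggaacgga
Mcoln1 (chr8:3500430-3500497, plus strand): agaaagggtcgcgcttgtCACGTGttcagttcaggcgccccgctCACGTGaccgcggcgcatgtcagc
Naglu (chr11:101070003-101070044, plus strand): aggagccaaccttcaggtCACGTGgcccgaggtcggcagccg
Sgsh (chr11:119355516-119355557, minus strand): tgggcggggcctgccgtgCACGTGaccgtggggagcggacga
Ctsl (chr13:64370733-64370770, minus strand): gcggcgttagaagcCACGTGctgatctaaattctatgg
Atp6v1a (chr16:44139367-44139408, minus strand): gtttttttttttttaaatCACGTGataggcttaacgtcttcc

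Over the whole window, Lamp1 held 4 copies of CACGTG. Ctsa, Ctsd, Gla and Mcoln1 held 2 each, of which the stretches of Ctsa and Ctsd show 1. The other 8 genes, among them Ctsf, Gaa and Glb1, held 1. Among the 13 genes with an E-box, 5 were called higher, 0 lower and 8 did not pass. Among the 26 genes whose window lacked CACGTG, 13 were called higher, 5 lower and 8 did not pass. Of all genes tested, with or without an E-box, 18.2% were called higher and 20.1% lower. Whether an E-box in the window goes with a call was not tested.

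Values are given as scaled signals, the processed signal of a probe divided by the 75th percentile of its array. Differences are log2 fold changes, SC1 minus DMSO, with the standard error (SE) and the Benjamini-Hochberg adjusted p of limma's moderated test over all 25422 genes, with 3 arrays in each group. A gene was called where the adjusted p was under 0.05, and where a gene had several probes the brightest was used. The probes of all 43 genes, 55 in all, passed the filter on dim signals. A large share of all genes tested differed between SC1 and DMSO at 6 h: 38.3% were called, 18.2% higher and 20.1% lower. With signals scaled to the spike-in probes instead, 8.99% were called higher and 10.9% lower.

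After SC1, 19 of the 43 lysosome and autophagy genes were called higher (44.2%, against 18.2% of all genes tested) and 5 were called lower (11.6%, against 20.1%). The other 19 did not pass. The median log2 fold change was 0.089 over the 43 genes and -0.004 over all genes tested, and 30 of the 43 values were above 0. Every SC1 array lay above every DMSO array for 22 genes, which was so for 24.6% of all genes tested. Every SC1 array lay below every DMSO array for 6 genes, against 27.5% of all genes tested, and the groups overlapped for 15. Most differences were small, and the genes called higher ranged from 0.16 to 1.41 on the log2 scale. Over all genes tested, 3573 of the 9735 called had a log2 fold change of at least 0.5 in size. Among the 43 genes, 8 of the 24 called did so. These 8 were Mitf, Map1lc3b, Ulk1, Lamp2, Gaa and Ctsf, which were higher, and Manba and Lipa, which were lower. The genes that did not pass lay between -0.13 and 0.17, with 95% intervals reaching from -0.44 to 0.36 at the widest.

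**Figure D1:**
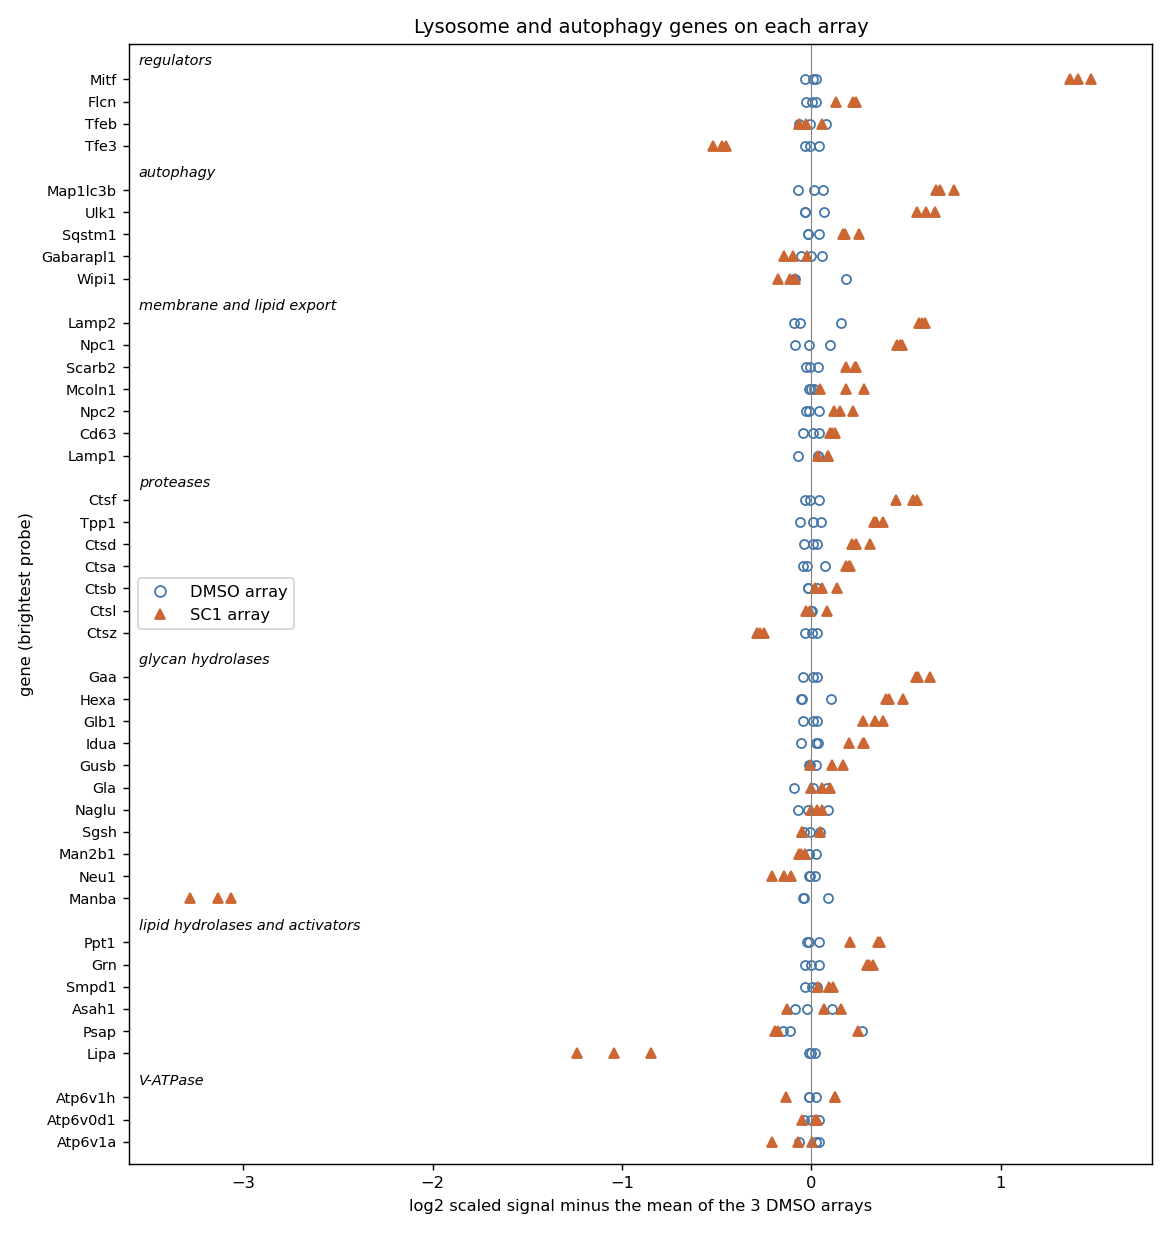
Log2 scaled signal of each of the 43 genes on each array, minus the mean of the 3 DMSO arrays, with genes in rows grouped by role; open circles are DMSO arrays and filled triangles SC1 arrays. Mitf lies to the right of all other genes at 1.41, Manba to the left at -3.16 and Lipa at -1.04, while the 3 V-ATPase genes stay near 0.

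The transcription factors of the family moved in different directions. Mitf, best known as a factor of pigment cells and the eye, gave scaled signals of 2.7, 2.62 and 2.73 with DMSO and of 7.12, 7.45 and 6.9 with SC1. All 3 SC1 arrays stood well above all 3 DMSO arrays. The difference was 2.66-fold (log2 fold change 1.41, SE 0.0465, adjusted p = 1.73e-05), the largest rise among the 43 genes, and a second Mitf probe gave 1.53. Tfe3 fell: its signals were 18.1, 18.7 and 17.8 with DMSO and 13.3, 12.7 and 13.1 with SC1, without overlap. That fall was 1.4-fold (log2 fold change -0.48, SE 0.0417, adjusted p = 0.00044), and the second Tfe3 probe gave -0.44.

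Tfeb, the family member most studied as a driver of lysosomal genes, showed no difference that passed. Its signals of 0.714, 0.684 and 0.755 with DMSO and 0.686, 0.702 and 0.744 with SC1 overlapped. The log2 fold change was -0.01, with a 95% interval from -0.15 to 0.13 (SE 0.0565, adjusted p = 0.876). Flcn, which encodes folliculin, gave 8.62, 8.42 and 8.74 with DMSO and 9.39, 10.0 and 10.1 with SC1. It was called higher by 1.15-fold (log2 fold change 0.20, SE 0.047, adjusted p = 0.0201). Both Flcn probes pointed the same way (0.20 and 0.16), but the call was among the weaker ones described below.

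**Figure D2:**
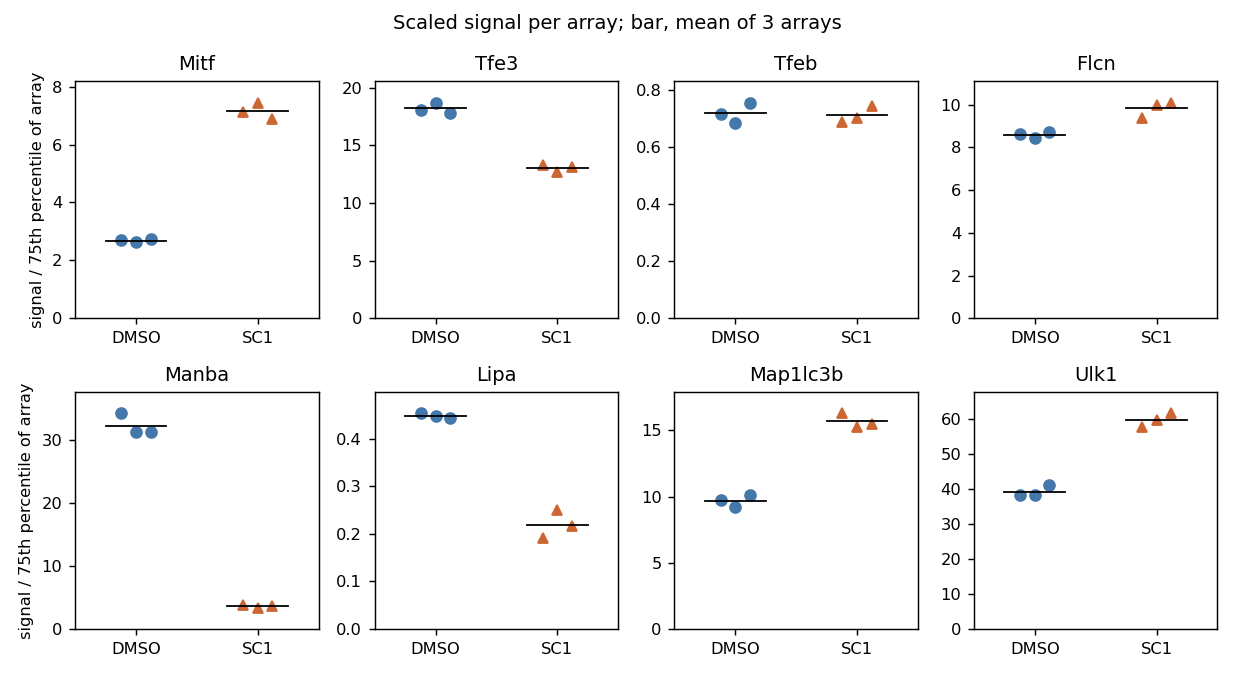
Scaled signal on each array for the 4 regulators and for Manba, Lipa, Map1lc3b and Ulk1; circles are DMSO arrays, triangles SC1 arrays, and the bar is the mean of 3 arrays, with each axis starting at 0 and its own scale. The groups are apart in 7 of the 8 panels and overlap for Tfeb.

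Of the 5 autophagy genes, 3 were called higher and 2 did not pass. Map1lc3b, which encodes the LC3B protein that coats autophagosomes, gave 9.77, 9.21 and 10.1 with DMSO and 16.3, 15.3 and 15.5 with SC1. Its rise was 1.62-fold (log2 fold change 0.70, SE 0.0521, adjusted p = 0.000258). Ulk1, the kinase that initiates autophagy, gave 38.3, 38.2 and 41 with DMSO and 57.6, 59.5 and 61.5 with SC1, a rise of 1.52-fold (log2 fold change 0.60, SE 0.0498, adjusted p = 0.00036). For both genes the lowest SC1 array exceeded the highest DMSO array by a wide margin. Sqstm1, which encodes the cargo receptor p62, gave 1.9, 1.82 and 1.82 with DMSO and 2.09, 2.2 and 2.07 with SC1. That small difference was called (log2 fold change 0.20, adjusted p = 0.016). Gabarapl1, another member of the LC3 family, had a log2 fold change of -0.09 (adjusted p = 0.234). Wipi1, which binds phosphoinositides on the forming membrane, had -0.13 (adjusted p = 0.299). So within the LC3 family the only member called was Map1lc3b, of the 2 on this list.

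Among the 7 genes of the lysosomal membrane and of lipid export, 4 were called higher (57.1%, against 18.2% of all genes tested). Of the 7, 0 were called lower (against 20.1%) and 3 did not pass, with a median log2 fold change of 0.168. Lamp2, a major glycoprotein of the lysosomal membrane that also serves chaperone-mediated autophagy, gave 2.99, 3.06 and 3.55 with DMSO and 4.84, 4.79 and 4.73 with SC1. The groups did not overlap, and the rise was 1.5-fold (log2 fold change 0.59, SE 0.0735, adjusted p = 0.00181). A second Lamp2 probe, for another transcript of the gene, gave 0.51. Npc1, the membrane protein that moves cholesterol out of the lysosome, gave 0.958, 1.09 and 1.01 with DMSO and 1.41, 1.39 and 1.42 with SC1 (log2 fold change 0.47, SE 0.0578, adjusted p = 0.00171). Its soluble partner Npc2 had a log2 fold change of 0.16 (adjusted p = 0.0404). Scarb2, the LIMP-2 receptor that carries glucocerebrosidase to the lysosome, had 0.22 (adjusted p = 0.00879).

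Lamp1, the close relative of Lamp2, gave 107, 107 and 99.2 with DMSO and 111, 107 and 111 with SC1. The groups touched, and the log2 fold change of 0.07 had a 95% interval from -0.05 to 0.19 (adjusted p = 0.328). Mcoln1, a calcium channel of the lysosomal membrane, was higher on every SC1 array (13.2, 15.5 and 14.5 against 12.9, 12.8 and 12.7) but did not pass (log2 fold change 0.17, adjusted p = 0.0976). It passed with quantile normalization (adjusted p = 0.0399) and without SC1 replicate 1 (log2 fold change 0.23, adjusted p = 0.0289), the SC1 array nearest to the DMSO arrays for this gene. Blocked on slide column it was 0.04 (adjusted p = 0.697) and with spike-in scaling 0.13 (adjusted p = 0.669), and 13 of 17 alternative fits did not pass. Cd63, a tetraspanin of late endosomes and lysosomes, was likewise higher on every SC1 array and did not pass (log2 fold change 0.11, adjusted p = 0.0872). With quantile normalization Cd63 reached 0.20 (adjusted p = 0.0103), and 14 of 17 alternative fits did not pass.

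Of the 7 proteases, 4 were called higher (57.1%, against 18.2% of all genes tested) and 1 lower (14.3%, against 20.1%). The other 2 did not pass, and the median log2 fold change of the 7 was 0.192. Ctsf, a cysteine cathepsin, gave 1.13, 1.17 and 1.11 with DMSO and 1.67, 1.65 and 1.55 with SC1, a rise of 1.43-fold (log2 fold change 0.51, SE 0.0472, adjusted p = 0.000551). Tpp1, a tripeptidyl peptidase, gave 1.96, 1.91 and 1.82 against 2.46, 2.4 and 2.38 (log2 fold change 0.35, adjusted p = 0.00202). Ctsd, the main aspartic protease of the lysosome, gave 29.3, 28.3 and 29.7 against 36, 34.2 and 33.7 (log2 fold change 0.25, adjusted p = 0.00771). In these 3 genes no SC1 array reached down to a DMSO array. Ctsa, a carboxypeptidase that also stabilizes lysosomal sialidase and beta-galactosidase, had 0.19 (adjusted p = 0.0216). When every probe was fitted, a dimmer probe of Ctsd gave 0.15 and did not pass (adjusted p = 0.258). Nor did a dimmer probe of Ctsa, at 0.48 (adjusted p = 0.0902). Ctsz, a cysteine cathepsin with carboxypeptidase activity, ran the other way, with 11.9, 11.6 and 12.1 in DMSO and 9.84, 9.72 and 9.98 in SC1 (log2 fold change -0.27, adjusted p = 0.00352). Ctsb and Ctsl, the most studied cysteine cathepsins, did not pass. Ctsb had a log2 fold change of 0.07 (95% interval -0.04 to 0.18) and Ctsl of 0.02 (-0.09 to 0.13).

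Manba, which encodes the beta-mannosidase that removes mannose in the last steps of glycoprotein breakdown, showed the largest difference of all 43 genes. Its signals were 34.3, 31.3 and 31.4 with DMSO and 3.87, 3.32 and 3.69 with SC1. Every SC1 array was far below every DMSO array, and the fall was 8.92-fold (log2 fold change -3.16, SE 0.0741, adjusted p = 7.93e-06). The other mannosidase on the list, Man2b1, an alpha-mannosidase, had 12.9, 13.2 and 12.9 with DMSO and 12.7, 12.4 and 12.5 with SC1. Those groups were apart by little, and the difference did not pass (log2 fold change -0.05, adjusted p = 0.372). With quantile normalization the Man2b1 value was 0.031.

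Manba was thus unlike most of the 11 glycan hydrolases, of which 5 did not pass (median log2 fold change of the 11, 0.050). Another 4 were called higher (36.4%, against 18.2% of all genes tested) and 2 lower (18.2%, against 20.1%). Gaa, the acid alpha-glucosidase that degrades glycogen, gave 13.3, 14 and 13.8 with DMSO and 20.2, 20.1 and 21.1 with SC1. The groups were well apart, a rise of 1.49-fold (log2 fold change 0.58, SE 0.0444, adjusted p = 0.000282), and the second Gaa probe gave 0.60. Hexa, the alpha subunit of beta-hexosaminidase, gave 6.5, 7.24 and 6.51 against 9.44, 8.84 and 8.97 (log2 fold change 0.43, adjusted p = 0.00273). Glb1, the lysosomal beta-galactosidase, gave 8.45, 8.9 and 8.77 against 11.3, 10.5 and 11 (log2 fold change 0.33, adjusted p = 0.00322). Idua, which cleaves iduronic acid from glycosaminoglycans, had 0.25 (adjusted p = 0.00887). A dimmer Idua probe gave 0.16 and did not pass when every probe was fitted (adjusted p = 0.105). Neu1, the lysosomal sialidase, was called lower at -0.15 (adjusted p = 0.0369).

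Among the glycan hydrolases that did not pass, Gla, the alpha-galactosidase, gave 340.5, 358 and 318 with DMSO and 338, 352 and 362 with SC1, so that the groups lay across each other (log2 fold change 0.05, 95% interval -0.09 to 0.19). Gusb, the beta-glucuronidase, had 0.09 (adjusted p = 0.265). Naglu, an enzyme of heparan sulfate breakdown, had 0.03 (adjusted p = 0.728). Sgsh, the sulfamidase of the same pathway, had -0.02 from its brightest probe (adjusted p = 0.802). A dimmer Sgsh probe, fitted on its own with every other probe, gave 0.37 (adjusted p = 0.00633), so the 2 probes of Sgsh disagreed and the gene is uncertain.

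Of the 6 lipid hydrolases and their activators, 2 were called higher (33.3%, against 18.2% of all genes tested) and 1 lower (16.7%, against 20.1%). The other 3 did not pass. Lipa, the acid lipase that hydrolyses cholesteryl esters and triglycerides, gave 0.453, 0.447 and 0.443 with DMSO and 0.19, 0.249 and 0.217 with SC1. No SC1 array came near the DMSO arrays, and the fall was 2.06-fold (log2 fold change -1.04, SE 0.0994, adjusted p = 0.000643). The size of the Lipa value varied with the background correction, and with normexp it was -0.74. Grn, which encodes progranulin, gave 9.87, 10.4 and 10.1 against 12.4, 12.5 and 12.7 (log2 fold change 0.31, adjusted p = 0.00226). Ppt1, a thioesterase that removes palmitate from proteins, gave 0.496, 0.475 and 0.479 against 0.62, 0.557 and 0.616 (log2 fold change 0.31, adjusted p = 0.00786). Smpd1, the acid sphingomyelinase, had 0.08 (adjusted p = 0.193), and Asah1, the acid ceramidase, 0.03 (adjusted p = 0.81). Psap, the precursor of the saposins, spread widely within both groups, with 5.91, 4.54 and 4.43 in DMSO and 4.35, 5.84 and 4.3 in SC1. One array in each group was high, and the 95% interval of its log2 fold change ran from -0.44 to 0.36.

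None of the 3 V-ATPase genes was called, against 38.3% of all genes tested. At an unadjusted p under 0.05 the count was also 0 of these 3 in limma, the lowest being 0.218 for Atp6v1a (adjusted p = 0.334). Atp6v0d1, a subunit of the membrane sector, gave 9.39, 9.15 and 9.67 with DMSO and 9.58, 9.54 and 9.08 with SC1, with a 95% interval from -0.11 to 0.11. Atp6v1a, the catalytic subunit, had a log2 fold change of -0.09 (-0.25 to 0.07). Atp6v1h, a regulatory subunit of the outer sector, had 0.04 (-0.16 to 0.24). All 3 intervals ended below the log2 fold changes of Lamp2 and Gaa, which were among the larger rises. The Atp6v1h interval held smaller rises that were called, such as 0.16 for Npc2 and 0.22 for Scarb2. Those of Atp6v0d1 and Atp6v1a ended below 0.16, the smallest rise called.

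**Figure D3:**
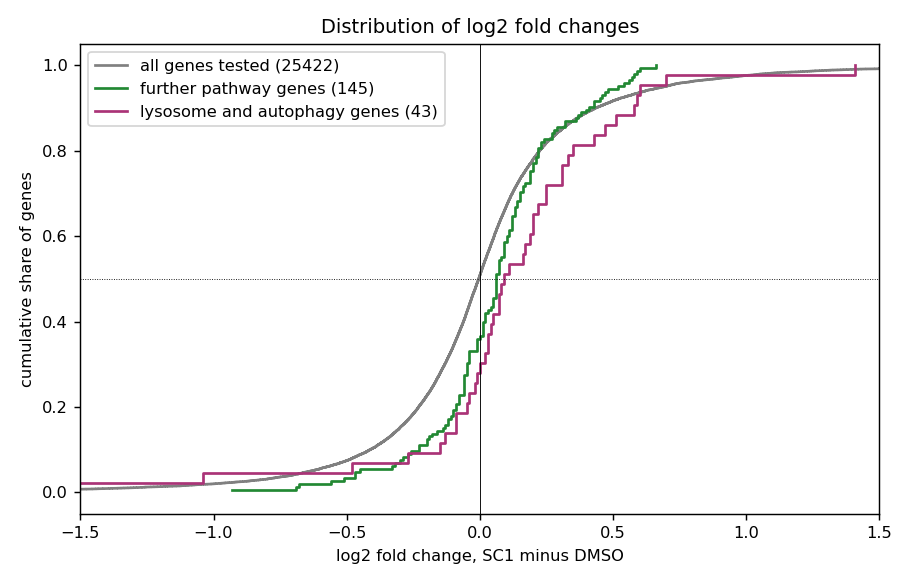
Cumulative share of genes against log2 fold change (SC1 minus DMSO) for the 43 genes, for 145 further genes of the same pathways and for all 25422 genes tested; the dotted line marks the median, and values beyond 1.5 in size, Manba among them, lie outside the axis. The medians are 0.089, 0.064 and -0.004, and the curve of the 43 genes lies to the right of that of all genes over most of its range.

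The calls of 5 genes did not hold with fewer arrays, although their direction did. For Npc2, Ctsa, Neu1, Sqstm1 and Flcn the adjusted p rose over 0.05 when certain arrays were left out. Npc2 kept its call when SC1 replicate 2 was left out, and without any of the others had an adjusted p between 0.0702 (without DMSO replicate 3) and 0.111 (without DMSO replicate 2). Neu1 lost its call without any 1 of the 6 arrays, with adjusted p from 0.0506 (without SC1 replicate 3) to 0.101 (without DMSO replicate 1). Ctsa lost its call without DMSO replicates 2 or 3 or without any SC1 replicate, with adjusted p from 0.0574 to 0.0722. Their log2 fold changes over the left-out arrays were 0.128 to 0.183 for Npc2, 0.168 to 0.229 for Ctsa, -0.175 to -0.126 for Neu1, 0.174 to 0.221 for Sqstm1 and 0.177 to 0.231 for Flcn. Sqstm1 lost its call without DMSO replicates 2 or 3 (0.0571 each), and Flcn without DMSO replicates 1 or 2 or SC1 replicates 2 or 3 (0.056 to 0.0688). Neu1 also lost its call with quantile normalization (adjusted p = 0.142) and without the filter on dim probes (0.0721). Npc2 lost it with normexp (0.0623), with scaling to the median of detected probes (0.0515) and without the filter (0.0773). The remaining 19 of the 24 calls held whichever array was left out.

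All 6 arrays were on 1 slide, where its first column held the 3 DMSO samples and SC1 replicate 1, and its second column held SC1 replicates 2 and 3. Blocked on slide column, the contrast rests on SC1 replicate 1 alone, and 13 genes were called higher and 4 lower, against 10.5% and 11.2% of all genes tested. The calls lost were Scarb2 (adjusted p = 0.0632), Idua (0.101) and the 5 genes above. Scaling to the spike-in probes, in place of the 75th percentile, gave 7 genes higher and 3 lower, against 8.99% and 10.9% of all genes tested. The median log2 fold change was then 0.048 over the 43 genes and -0.045 over all genes tested, so both medians were lower than in the main fit. In that scaling Hexa had an adjusted p of 0.0724, Ctsz and Tpp1 of 0.176, and Glb1, Grn, Ppt1, Idua, Ctsd, Scarb2 and the 5 genes above of 0.224 to 0.71. Mitf, Map1lc3b, Ulk1, Lamp2, Npc1, Gaa and Ctsf remained higher, and Manba, Lipa and Tfe3 lower, under each of the 19 alternatives. No called gene changed sign under any of them.

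**Figure D4:**
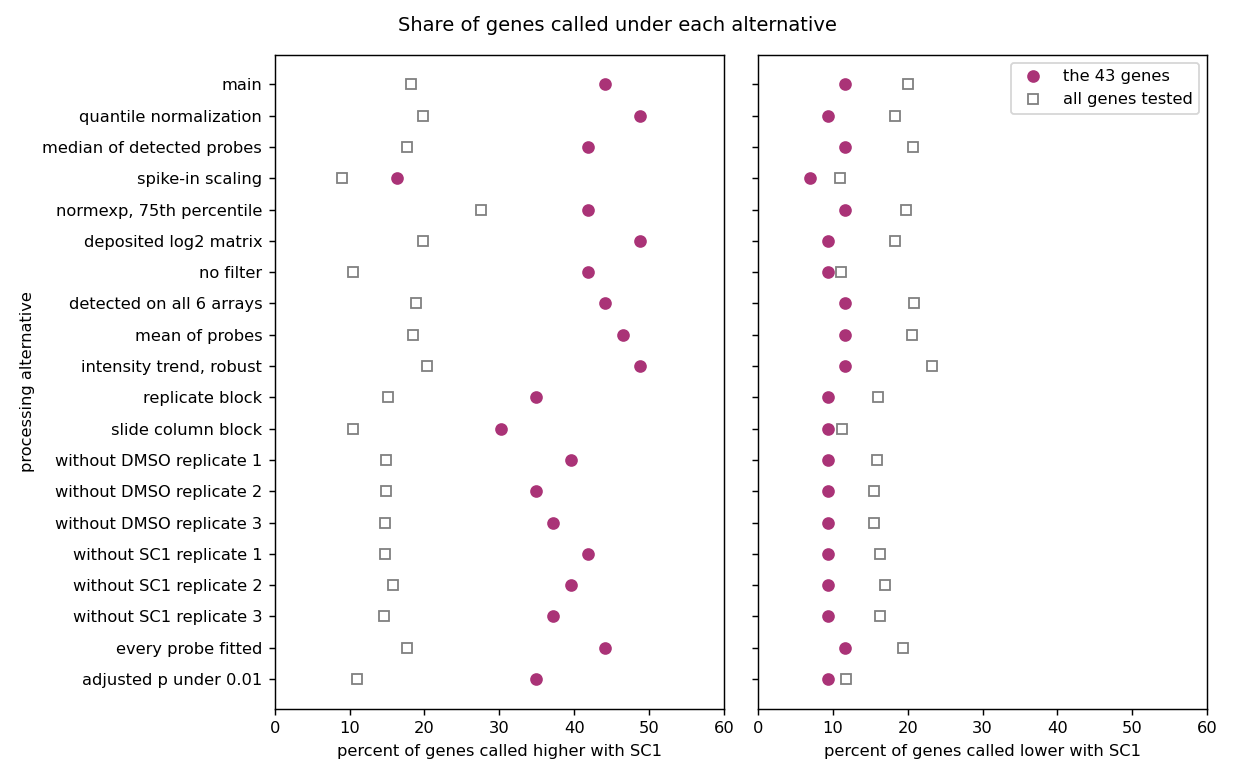
Percent of the 43 genes (filled circles) and of all genes tested (open squares) called higher, left, and lower, right, with SC1 under each processing setting in rows. The share called higher runs from 16.3% with spike-in scaling to 48.8% with quantile normalization among the 43 genes, and lies to the right of the square in every row.

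For the wider pathways, 148 further genes were listed, of which 145 were tested. Of these, 39 were called higher (26.9%, against 18.2% of all genes tested) and 19 lower (13.1%, against 20.1%), with a median log2 fold change of 0.064. Their shares lay closer to those of all genes than the shares of the 43 genes did. Blocking on the slide column left 25 called higher (17.2%, against 10.5% of all genes tested) and 12 lower (8.28%, against 11.2%). With spike-in scaling 11 were called higher (7.59%, against 8.99%) and 8 lower (5.52%, against 10.9%). The share called higher was then not above that of all genes tested.

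Among 38 further core autophagy genes, 11 were called higher (28.9%, against 18.2% of all genes tested) and 5 lower (13.2%, against 20.1%). The count called higher was 6 without DMSO replicate 3 and 7 without DMSO replicate 2 or without SC1 replicate 1. It was 7 with slide column blocked, and 3 with spike-in scaling, which gave 1 lower. The shares of all genes tested called higher in these settings were 14.7%, 14.8%, 14.7%, 10.5% and 8.99%, in the same order. Spike-in scaling called 10.9% of all genes tested lower. Atg13, a subunit of the ULK1 complex, gave 9.54, 9.57 and 9.67 with DMSO and 15, 15.3 and 15.2 with SC1, a rise of 1.58-fold (log2 fold change 0.66, SE 0.0366, adjusted p = 9.16e-05). Atg2a, which transfers lipids to the growing membrane, rose by 1.49-fold (adjusted p = 0.00078). Atg14, the subunit that directs the class III PI3-kinase complex to autophagosomes, rose by 1.35-fold (adjusted p = 0.000914). Thus both Ulk1 and its partner Atg13 were higher on every SC1 array than on any DMSO array.

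Of 32 genes of mTORC1 and its lysosomal regulators, 11 were called higher (34.4%, against 18.2% of all genes tested) and 5 lower (15.6%, against 20.1%). The count called lower was 2 without DMSO replicate 1, DMSO replicate 3 or SC1 replicate 1, and 3 when any 1 of the other arrays was left out. In those fits 15.5% to 17% of all genes tested were called lower. Spike-in scaling gave 5 higher and 2 lower, against 8.99% and 10.9% of all genes tested. Of the 4 Rag GTPases, which recruit mTORC1 to the lysosome, 1 was called lower and 1 higher. Rragb had 0.485, 0.476 and 0.457 with DMSO and 0.333, 0.336 and 0.328 with SC1 (log2 fold change -0.51, adjusted p = 0.000363). Rragd had 0.139, 0.154 and 0.156 against 0.228, 0.229 and 0.217 (log2 fold change 0.59, adjusted p = 0.000791). Rraga (-0.14, adjusted p = 0.284) and Rragc (0.05, adjusted p = 0.529) did not pass. Rptor, which encodes the mTORC1 subunit raptor, rose by 1.35-fold (adjusted p = 0.000552).

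Among 29 further genes of the lysosomal membrane and of enzyme sorting, 9 were called higher (31%, against 18.2% of all genes tested). Another 5 were called lower (17.2%, against 20.1%). Spike-in scaling reduced these counts to 2 and 1, against 8.99% and 10.9% of all genes tested, so neither share was then above that of all genes. Laptm4b, a transmembrane protein of late endosomes, had a log2 fold change of -0.45 (adjusted p = 0.000449). Tmem175, an ion channel of the lysosome, had 0.45 (adjusted p = 0.00086), and Ostm1, the partner of the chloride transporter ClC-7, had 0.52 (adjusted p = 0.0014). Of 30 further hydrolases, 5 were called higher (16.7%) and 3 lower (10.0%, against 20.1% of all genes tested). The share called higher was thus not above the 18.2% of all genes tested. Hyal2, a hyaluronidase that is anchored at the cell surface, gave 17.5, 17.8 and 16.9 with DMSO and 11.9, 11.6 and 11.9 with SC1 (log2 fold change -0.56, adjusted p = 0.000236).

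Of 16 further V-ATPase subunits, 3 were called higher (18.8%, against 18.2% of all genes tested) and 1 lower (6.25%, against 20.1%). The other 12 did not pass, and the share called higher was near that of all genes tested. Tcirg1, an isoform of the membrane subunit a that is best known from osteoclasts, had a log2 fold change of -0.47 (adjusted p = 0.000514). Atp6v0b and Atp6v0a1, also of the membrane sector, had 0.21 (adjusted p = 0.00715) and 0.22 (adjusted p = 0.00922). Blocking on the slide column left 1 of the 16 called higher and 1 lower, against 10.5% and 11.2% of all genes tested.

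All 10 pluripotent stem cell markers were well above background on all 6 arrays and their summed scaled signal was 655 to 685 with DMSO and 709.8 to 754 with SC1. Most of it was Dppa5a, with 368 to 396 and 403 to 438. Fgf4 went from 54.6 to 57.2 up to 100.2 to 107. Tdgf1 went from 32.5 to 34.4 down to 12.4 to 13, and Dppa4 from 14.2 to 14.7 down to 4.72 to 5.18. Of the 10 fibroblast markers, 8 were above background on all arrays at a summed signal of 2.6 to 2.78 with DMSO and 2.24 to 2.31 with SC1, and Lum and Postn on none. That sum was mostly Thy1, which had 1.37 to 1.48 with DMSO and 0.641 to 0.732 with SC1, whereas Col1a1 went from 0.197 to 0.225 up to 0.345 to 0.385. The 12 primitive endoderm markers summed to 2.55 to 2.87 and 2.67 to 2.92. Among 10 macrophage markers, a cell type rich in lysosomes, 4 were above background on all arrays and Aif1, C1qa and Lyz2 on none. Their sum of 17.9 to 18.3 with DMSO and 19.8 to 21.3 with SC1 was mostly Itgam. The 8 trophoblast markers summed to 12.8 to 13.6 with DMSO and 31.1 to 33.3 with SC1, nearly all of it Tfap2c, which embryonic stem cells also express, while Elf5, Hand1 and Plac1 were above background on none. Of the markers tested, 2 of 10 pluripotent ones were called higher and 4 lower, 4 of 8 fibroblast ones higher and 1 lower, and 3 of 12 primitive endoderm ones higher and 1 lower. For the trophoblast 3 of 5 were called higher and 1 lower, and for the macrophage 1 of 4 higher. Of all genes tested, 18.2% were called higher and 20.1% lower. In bulk RNA, fewer cells of a type and less RNA per cell cannot be told apart. The part of these markers in the results above was not tested. The DMSO arrays had a 75th percentile of processed signal between 533.1 and 539.5, the SC1 arrays one between 443.5 and 494.2, and no array had a saturated spot.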

How the data were processed

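Cy3-labelled RNA of each of the 3 SC1 and 3 DMSO samples was hybridised to its own 1-colour array. Per the file headers and the submitters' processing notes, the deposited intensity values are background-subtracted signals of Agilent Feature Extraction 10.7, not scaled between arrays. The deposited log2 matrix has the same median (5.18) on each array and was used as an alternative. How the authors made it is not given in the sources used here. Spots of one probe were averaged, control spots and outlier spots were left out, and log2 signals were centred on each array's 75th percentile. A probe was kept if all 3 arrays of either group had it well above background, which held for 35289 of 55681 probes. RefSeq accessions named 27235 probes, and the brightest probe stood for each gene. Sequences without a RefSeq name were kept under their own labels and counted among the genes tested. limma 3.58.1 (R 4.3.3) tested SC1 against DMSO with lmFit and eBayes, two-sided, at an adjusted p of 0.05, and was tested on simulated data. The number of arrays limits the precision.

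Full statistics were given for genes called with a log2 fold change of at least 0.5 in size and for all 4 regulators, and from each further list up to 3 called genes with the smallest p. Some genes that this rule names are not reported here. From each marker list counts and up to 2 genes that make up most of the sum were named. Col1a1, Fgf4, Tdgf1, Dppa4, the markers at background, Rraga and Rragc were added after their values were seen. The other genes of the list are given by value or range. The genes and lists were chosen with earlier results of these data known. Within a group, log2 differences between arrays had an SD of 0.222 to 0.256 over the genes tested, and between groups of 0.491 to 0.509. Cd68 found no probe by accession, and Atp6v0d2 and Atg4a did not pass the filter. Scaling, background, filter, probe choice, variance model, blocks, threshold and left-out arrays were varied.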

Additional observations from a re-analysis of the deposited data

How the results depend on the processing

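With spike-in scaling the counts fell to 7 higher and 3 lower among the 43 genes and to 11 higher and 8 lower among the further 145. That scaling also called fewer of all genes tested, 8.99% higher and 10.9% lower. With the slide column as a block the further genes gave 25 higher (17.2%) and 12 lower (8.28%), against 10.5% and 11.2% of all genes tested. At an adjusted p under 0.01 they gave 11 lower (7.59%, against 11.7% of all genes tested). Leaving out 1 array gave 15 to 18 of the 43 genes higher (34.9% to 41.9%) and 4 lower (9.3%). All genes tested gave 14.6% to 15.8% higher and 15.5% to 17% lower, so calls were fewer there too. The cause of these changes was not tested, beyond the fewer arrays or the stricter threshold. With the replicate number as a block (replicate block) 15 genes were called higher (34.9%, against 15.1% of all genes tested) and 4 lower (9.3%, against 16%). Same-numbered samples showed no shared deviation (correlations -0.04 to -0.01, against -0.06 to 0.08 for differently numbered ones). These values cannot tell whether same-numbered samples were handled as pairs, which no label states. Normexp called 27.6% of all genes higher and 19.8% lower. The values that changed sign all belonged to genes without a call in the main analysis. They were Ctsl (-0.024 with spike-in scaling, -0.039 with normexp, -0.004 with the slide column), Man2b1 (0.031 with quantile normalization, 0.030 in the deposited matrix), Gla (-0.003 with the slide column), Naglu (-0.013 with spike-in scaling), Asah1 (-0.008 with spike-in scaling), Atp6v1h (-0.002 with spike-in scaling) and Tfeb (0.006 with normexp). Quantile normalization and the deposited matrix gave 0.076 and 0.075 for Sgsh, 0.011 and 0.011 for Psap, and 0.061 and 0.057 for Atp6v0d1, which had 0.026 with the slide column. The mean of its probes gave Sgsh 0.176 (adjusted p = 0.0128). Leaving out 1 array gave -0.016 to 0.038 for Ctsl, -0.008 to 0.071 for Naglu, -0.051 to 0.004 for Sgsh, -0.184 to 0.092 for Psap, -0.029 to 0.113 for Asah1, -0.020 to 0.024 for Atp6v0d1, -0.006 to 0.126 for Atp6v1h and -0.047 to 0.024 for Tfeb. Lipa, a dim gene, moved from -1.04 to -0.74 with normexp.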
